A study of Mus musculus with 18 samples.

Results

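IFN-γ and E. coli were compared directly as single stimuli of mouse eosinophils that were in contact with apoptotic cells (ACs). The comparison used 6 of the 18 libraries of the series, the 3 of IFN-γ + ACs and the 3 of E. coli + ACs, which were taken by their treatment labels. Genes were included when their mean over these 6 libraries was at least 10 normalized counts, and 10111 genes met this. The eosinophils came from the peritoneal cavity of Il5Tg mice of the NJ.1638 line, labelled C57BL/6, in which an Il5 transgene drives the production of eosinophils. They were enriched by removing cells bound by anti-Thy1.2 and anti-B220 beads. In both groups 5 apoptotic cells were added per eosinophil for 18 h, and these were thymocytes of wild-type mice treated with dexamethasone. After the culture, eosinophils were recovered on anti-Siglec-F beads and their RNA was sequenced from the 3′ end by CEL-Seq2. So the groups share the transgene, the apoptotic cells and the second purification, and differ in receiving IFN-γ or E. coli. Libraries with ACs as the sole stimulus and libraries with IFN-γ + E. coli + ACs, 3 each, came from the same experiment and are given beside the comparison as context. The levels against ACs alone share the same ACs libraries for both stimuli.

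IFN-γ is a cytokine of T cells and natural killer cells that signals through its receptor, JAK kinases and STAT factors, which bind GAS elements in the promoters of their targets. Together with the factor IRF1 this induces guanylate-binding proteins, immunity-related GTPases, antigen presentation genes and the CXCR3 ligands. E. coli is a Gram-negative bacterium whose lipopolysaccharide is sensed by TLR4 with CD14 and MD-2 (Ly96), and whose other products are sensed by further Toll-like receptors. These act through MyD88 and TRIF on NF-κB and MAP kinases, and induce neutrophil-attracting chemokines, cytokines and a later wave of interferon-stimulated genes. Eosinophils express both kinds of receptor, and the question of the comparison is which transcripts set 1 stimulus apart from the other in cells that also meet apoptotic cells.

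The IFN-γ + ACs libraries held 2216917 to 4090386 reads on genes and the E. coli + ACs libraries 4759815 to 5078760. At that depth 3 reads stood for 3.44 to 6.16 normalized counts in the former and 2.45 to 2.64 in the latter, and levels below this cannot be told from 0. Log2 values of libraries within a group correlated at 0.953 to 0.976 across genes, which are not independent replicates, and those between the groups at 0.909 to 0.931. The labels do not say that the 3 libraries of a group came from separate mice or cultures. The study calls its samples biological replicates and states, for eosinophils with and without ACs, that each was from a different mouse. For the IFN-γ + ACs and E. coli + ACs libraries this is not stated, and the p-values measure the spread between these libraries, which may be technical. The median SD per gene between replicates was 0.26 on the log2 scale with IFN-γ + ACs and 0.19 with E. coli + ACs. All differences below are log2(normalized count + 1) with IFN-γ + ACs minus that with E. coli + ACs, fitted with limma over the 12 libraries of the experiment, and they understate the change of genes with low counts. Levels are given as mean ± SD of 3 libraries and log2 differences as estimate ± SE. Genes past the threshold are those of at least 1.5-fold and, after Benjamini-Hochberg adjustment over all 10111 genes, p under 0.05. With 3 libraries per group no two-sided exact permutation test of a single gene can give a p below 0.10.

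With IFN-γ + ACs 1004 genes were higher than with E. coli + ACs, which is 9.93% of the genes tested, and 679 genes (6.72%) were higher with E. coli + ACs. Differences of at least 4-fold were found for 178 of the former and 64 of the latter. The counts of the gene lists below are to be read beside these 9.93% and 6.72% of all genes. The levels of the 3 and 3 libraries did not overlap for 3743 genes, or 37% of those tested, and for 987 of the 1004 and 665 of the 679. Leaving out 1 library at a time gave 855 to 991 genes higher with IFN-γ + ACs and 530 to 716 higher with E. coli + ACs. The balance between the directions depended on the scaling of the libraries. Under the deposited size factors 59.7% of the calls were higher with IFN-γ + ACs, against 42% (754 genes, with 1041 in the other direction) when libraries were rescaled to the same total of reads on genes, which moved the median difference of all genes to -0.15 from -0.004.

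**Figure D1:**
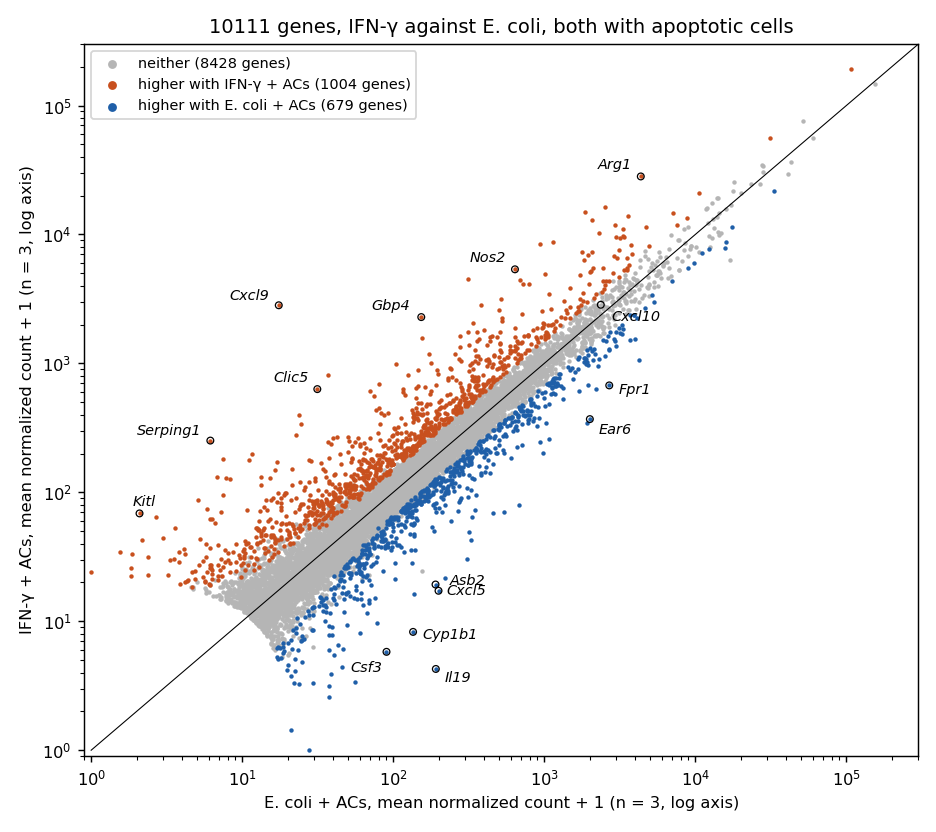
Mean normalized count + 1 of each of the 10111 genes with E. coli + ACs (x axis) and IFN-γ + ACs (y axis), both on log axes, n = 3 libraries each. Orange points are the 1004 genes higher with IFN-γ + ACs, blue points the 679 higher with E. coli + ACs and grey points the others, and Cxcl9 lies farthest above the line of equal levels and Il19 farthest below it among the genes circled.

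Cell type markers were examined first, since the RNA is that of a purified population and not of single cells. Eosinophil markers were higher with E. coli + ACs, and 8 of the 11 tested were past the threshold in that direction and 0 in the other. Their summed level was 21860 to 24770 normalized counts per library with IFN-γ + ACs, 36720 to 39010 with E. coli + ACs and 26630 to 27500 with ACs alone, and none of the 14 was at 0 in a whole group. Macrophage markers were higher with IFN-γ + ACs for 11 of the 15 tested, with a median difference of 1.54. Their sum was 21220 to 30130 with IFN-γ + ACs, 8391 to 10170 with E. coli + ACs and 16230 to 20640 with ACs alone. The sum thus lay below ACs alone with E. coli and above it with IFN-γ. Gene by gene, 3 of the 15 tested were past the threshold above ACs alone and 2 below it with IFN-γ + ACs (median 0.21). With E. coli + ACs 0 were above and 9 below (median -1.27). Mertk, a receptor for apoptotic cells, was at 702, 956 and 1019.9 with IFN-γ + ACs against 242, 168 and 169.8 with E. coli + ACs, against 253 ± 37.2 (SD, n = 3) with ACs alone. Vsig4, a complement receptor of resident macrophages, stood at 321, 391 and 304 with IFN-γ + ACs against 93.8, 81.8 and 67.7 with E. coli + ACs, and at 544 ± 96.99 with ACs alone. So IFN-γ + ACs exceeded ACs alone for Mertk, while for Vsig4 both stimuli lay below ACs alone and E. coli + ACs lay farther below. In bulk RNA fewer cells of a type and less RNA per cell cannot be told apart. The paper reports, by flow cytometry after the second purification, that nearly all recovered cells were eosinophils. Sums of counts of unlike markers do not give shares of cells. The part of macrophages in the genes below that macrophages also express was not tested.

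Markers of the other cell types had lower sums. The 16 thymocyte and T cell markers summed to 174 to 199 with IFN-γ + ACs and 322 to 359 with E. coli + ACs, and 1 of the 7 tested, the transcription factor Tcf7, passed the threshold, at 36.9, 20.6 and 12.3 with IFN-γ + ACs against 56.9, 61.3 and 62.5 with E. coli + ACs. Neutrophil markers summed to 2312 to 2770 and 2546 to 2834, with 2 of the 12 at 0 in a whole group in each case, and 3 of the 7 tested passed the threshold, 1 higher with IFN-γ + ACs and 2 with E. coli + ACs. The former was Ly6g (1.61 ± 0.50), whose call was lost without any one of the E. coli + ACs libraries or without IFN-γ + ACs replicate 3 (1.21 to 1.73). Those higher with E. coli + ACs were Cxcr2 (-2.46 ± 0.26) and S100a8 (-1.35 ± 0.22). Both are given again below, and the part of neutrophils in their levels was not tested. B cell markers summed to 197 to 263 with IFN-γ + ACs, 581 to 617 with E. coli + ACs and 1251 to 1449 with ACs alone, and the 3 tested, which include Ighm and Igkc, were higher with E. coli + ACs. The remaining one, Cd79a, lost its call when any library but IFN-γ + ACs replicate 3 was left out (-1.27 to -1.57). Markers of mast cells and basophils reached at most 56.2 in these 6 libraries, and those of dendritic cells at most 45.2. Of the 13 mitochondrially encoded transcripts 1 differed (7.69%, beside the 9.93% of all genes higher with IFN-γ + ACs). It was mt-Atp8, at a log2 difference of 0.79 ± 0.20, and the median of the list was 0.27.

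**Figure D2:**
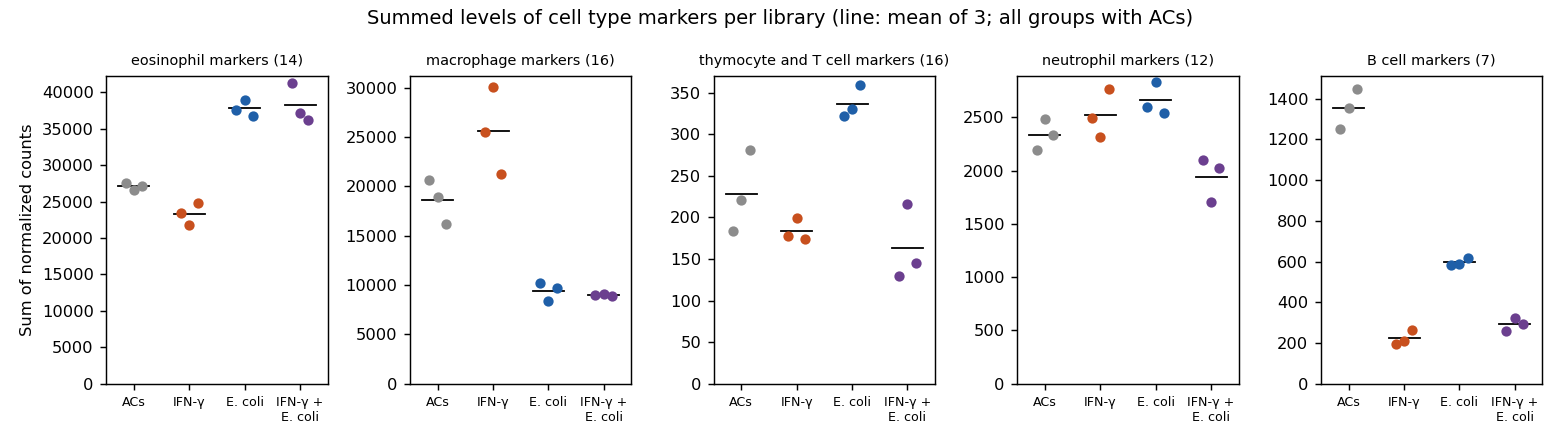
Summed normalized counts of the markers of 5 cell types in each library (points) with the mean of 3 (line), for ACs alone, either stimulus and both stimuli, all with ACs; brackets give the number of markers summed. Eosinophil sums are 21860 to 24770 with IFN-γ and 36720 to 39010 with E. coli, while macrophage sums are 21220 to 30130 and 8391 to 10170.

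The receptors of the stimuli came first among the genes of the pathways. Ifngr1, the ligand-binding chain of the IFN-γ receptor, had levels of 153, 164 and 205 with IFN-γ + ACs against 285, 365 and 296 with E. coli + ACs, and at 262 ± 11.01 with ACs alone. The 3 IFN-γ libraries all lay below the 3 E. coli libraries (-0.86 ± 0.16, adjusted p = 0.00051). Ifngr2, the signalling chain, differed by -0.62 ± 0.17 (adjusted p = 0.011), but its libraries overlapped, and leaving out E. coli + ACs replicate 1 gave -0.56 with adjusted p = 0.056. The call of Ifngr2 was also lost without E. coli + ACs replicate 2 (-0.58), IFN-γ + ACs replicate 1 (-0.50) and IFN-γ + ACs replicate 2 (-0.50). On the bacterial side Tlr4 was at 48.8, 95.1 and 82.1 with IFN-γ + ACs against 41.9, 57.2 and 45.7 with E. coli + ACs, with overlapping libraries (adjusted p = 0.11), although without IFN-γ + ACs replicate 1 it was higher with IFN-γ + ACs (0.87, adjusted p = 0.018). Tlr2, Ly96 and Myd88 did not pass the threshold (adjusted p = 0.7, 0.55 and 0.23). Cd14, the coreceptor for lipopolysaccharide, stood at 6664, 8023 and 6758 with IFN-γ + ACs against 11686, 9824 and 11666 with E. coli + ACs, and all 3 E. coli libraries were above the IFN-γ libraries (-0.63 ± 0.12, adjusted p = 0.00075). Its difference fell to -0.58, below 1.5-fold, without IFN-γ + ACs replicate 1.

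The largest difference of all genes was in Cxcl9, a chemokine that attracts T cells through CXCR3 (GRCm38 chr5:92321347-92328079, minus strand). Cxcl9 had levels of 2476, 3268 and 2723 with IFN-γ + ACs against 17.6, 9.81 and 21.99 with E. coli + ACs, and the E. coli libraries were at the level of ACs alone, 14.9 ± 8.11 (SD, n = 3). The mean with IFN-γ + ACs was 171-fold that with E. coli + ACs (7.40 ± 0.31, adjusted p = 3.3e-12). The other CXCR3 ligands behaved differently. Cxcl11 was at 166, 205 and 267 with IFN-γ + ACs against 68.7, 76.8 and 60.7 with E. coli + ACs, and both groups lay above its 4.20 ± 1.44 with ACs alone (1.60 ± 0.25, adjusted p = 0.00011). Cxcl10 stood at 2447, 2649 and 3448 with IFN-γ + ACs against 2707, 2166 and 2222 with E. coli + ACs and did not pass the threshold (0.26 ± 0.17, adjusted p = 0.34), while with ACs alone its level was 158 ± 42.2. So both stimuli gave high levels of Cxcl10, IFN-γ + ACs gave more Cxcl11 transcript than E. coli + ACs, and of the 3 ligands Cxcl9 alone stayed at the ACs level with E. coli. The annotation lists Cxcl11 as a polymorphic pseudogene, so its transcript level does not speak for a working chemokine.

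Among the 10 genes with the largest differences in this direction were also Serping1, Kitl, Ubd, Serpina3f, Ido1, F830016B08Rik, Clic5, Gm12185 and Slc6a19. Serping1, the inhibitor of complement component C1, had levels of 249, 279.7 and 224 with IFN-γ + ACs against 5.02, 1.64 and 8.80 with E. coli + ACs (5.54 ± 0.38, adjusted p = 3.1e-09). Clic5, a chloride intracellular channel protein, was at 464, 658 and 769.5 with IFN-γ + ACs against 19.2, 35.97 and 36.1 with E. coli + ACs (4.35 ± 0.31, adjusted p = 6.1e-09), beside 7.05 ± 4.47 with ACs alone. Kitl, which encodes stem cell factor, stood at 72.5, 68.8 and 61.6 with IFN-γ + ACs against 0, 3.27 and 0 with E. coli + ACs, and at 8.74 ± 5.39 with ACs alone. Its mean with E. coli + ACs was below the level of 3 reads, as was that of Ubd, a ubiquitin-like modifier. That of Slc6a19, an amino acid transporter, was at it, so the fitted differences of these genes depend on the pseudocount and no fold is given. Ubd had levels of 47.5, 65.3 and 75.9 with IFN-γ + ACs, and it was at 0 in all 3 libraries with ACs alone and in 2 of the 3 with E. coli + ACs. Serpina3f, a serine protease inhibitor, was at 156, 211 and 172 with IFN-γ + ACs against 5.02, 7.36 and 7.04 with E. coli + ACs (4.60 ± 0.31, adjusted p = 2.2e-09).

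All 10 guanylate-binding proteins tested, large GTPases that attack the vacuoles of intracellular pathogens, were higher with IFN-γ + ACs, against the 9.93% of all genes that were higher in that direction. Their median difference was 2.60, or 2.24 with a pseudocount of 5, where that of all genes was -0.004. Gbp2b had the largest fitted difference, but its mean with E. coli + ACs was below the level of 3 reads and the difference fell from 4.01 to 2.32 with a pseudocount of 5. The other 9 differed by 1.41 to 3.92. Gbp4 stood at 1993, 2485 and 2376 with IFN-γ + ACs against 193, 144 and 121 with E. coli + ACs (3.92 ± 0.17, adjusted p = 8.1e-12). Gbp8 had levels of 319, 356 and 343 with IFN-γ + ACs against 21.8, 28.6 and 20.2 with E. coli + ACs. Gbp11, which the annotation also lists as a polymorphic pseudogene, was at 40.9, 55.02 and 88.2 with IFN-γ + ACs against 5.02, 4.09 and 6.16 with E. coli + ACs. All 11 immunity-related GTPases tested were likewise higher with IFN-γ + ACs (1.53 to 4.42, median 2.09). Iigp1, the best known of them, was at 3921, 4922 and 4714 with IFN-γ + ACs against 359, 302 and 279.7 with E. coli + ACs (3.84 ± 0.19, adjusted p = 2.4e-11). F830016B08Rik stood at 733, 595 and 1110.2 with IFN-γ + ACs against 34.3, 33.5 and 39.6 with E. coli + ACs, and Gm12185 and Gm4841 differed by 4.30 ± 0.35 and 4.11 ± 0.25. Against ACs alone the medians of the guanylate-binding proteins were 2.83 with IFN-γ + ACs and 0.04 with E. coli + ACs, and those of the GTPases were 2.31 with IFN-γ + ACs and -0.08 with E. coli + ACs. Members of both families are similar in sequence and some lie next to each other, so reads may be divided between them with error, above all for Gbp2b, Gbp4, Gbp8 and the unnamed GTPase genes.

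**Figure D3:**
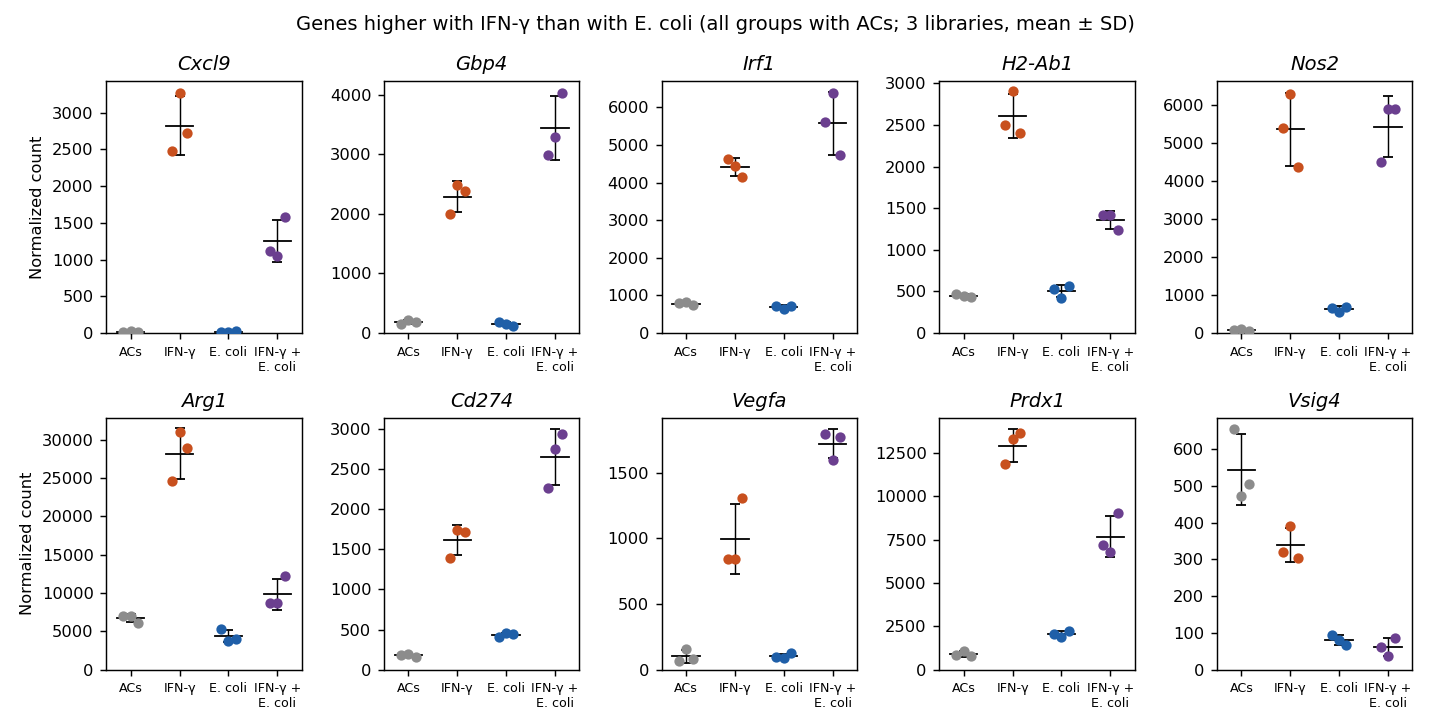
Normalized counts of 10 genes that were higher with IFN-γ than with E. coli, in each library (points) of the 4 groups of the experiment, all with ACs, with mean and SD of 3 libraries. Cxcl9, Gbp4, Irf1 and H2-Ab1 with E. coli lie near the level of ACs alone, Nos2 and Prdx1 lie above it, and Vsig4 lies below it.

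Promoters were read for the motifs that the pathways use, in the 250 bases before each RefSeq start (GRCm38.p6). The letters searched were TTCNNNGAA for GAS elements and AAANNGAAA for the core of the interferon-stimulated response element (ISRE), on both strands, and the NF-κB site on both strands. Of the genes past the threshold, 772 of the 1004 and 518 of the 679 were matched by symbol. An ISRE core was found for 11.4% of the genes higher with IFN-γ + ACs and 9.46% of those higher with E. coli + ACs, beside 10.8% of all 27025 genes with a promoter. GAS letters were found for 6.74% and 8.49%, beside 8.13% of all genes, and an NF-κB site for 6.35% and 7.53%, beside 4.46%. Among the 7782 tested genes with a promoter the shares were 9.18% for the ISRE core, 6.98% for GAS letters and 5.49% for the NF-κB site. Each of the 5 guanylate-binding protein genes matched and 6 of the 7 matched GTPase genes held an ISRE core. Of the 5 matched genes of the neutrophil-attracting CXC chemokine list 3 held an NF-κB site, while 0 of those 5 held either interferon motif. Of 16 matched genes for MHC class I and the immunoproteasome, 7 held an NF-κB site and 2 an ISRE core. A match is a description of the letters and not of binding.

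Promoters of 6 genes are shown, those with the largest difference in each direction among the named genes with a match, to set the motifs beside the measured levels. The letters in capitals are the matches, and each runs 5′ to 3′ toward the start of the gene. Ubd (chr17:37193642-37193891 plus strand) holds an ISRE core and, nearest the start, an NF-κB site. Serpina3f (chr12:104214294-104214543 plus strand) holds a GAS element, and Gm12185 (chr11:48927183-48927432 minus strand) holds an ISRE core on each strand with a GAS element between them. Il19 (chr1:130940116-130940365 minus strand) holds a GAS element, an ISRE core and an NF-κB site in that order. Car4 (chr11:84957504-84957753 plus strand) holds 1 NF-κB site, and Cxcl1 (chr5:90890995-90891244 plus strand) holds 2 that overlap. Genes without a match were passed over, so holding a motif was fixed by the choice. Nothing is read from which motif each of the 6 genes held. Il19 held all 3 motifs, and their relation to its levels was not tested.
Ubd: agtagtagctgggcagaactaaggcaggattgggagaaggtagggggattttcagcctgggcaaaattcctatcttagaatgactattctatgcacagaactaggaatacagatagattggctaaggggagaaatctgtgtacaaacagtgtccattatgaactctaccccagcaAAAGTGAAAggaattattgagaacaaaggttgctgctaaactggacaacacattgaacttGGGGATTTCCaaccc
Serpina3f: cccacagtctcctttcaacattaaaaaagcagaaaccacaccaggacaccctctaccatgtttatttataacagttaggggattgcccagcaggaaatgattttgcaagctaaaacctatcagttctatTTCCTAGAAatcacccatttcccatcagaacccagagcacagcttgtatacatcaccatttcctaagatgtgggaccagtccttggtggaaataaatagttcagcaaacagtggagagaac
Gm12185: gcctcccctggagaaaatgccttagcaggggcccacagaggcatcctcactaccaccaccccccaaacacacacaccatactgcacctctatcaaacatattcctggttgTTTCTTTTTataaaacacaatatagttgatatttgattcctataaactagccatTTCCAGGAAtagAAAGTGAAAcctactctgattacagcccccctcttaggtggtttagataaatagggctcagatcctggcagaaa
Il19: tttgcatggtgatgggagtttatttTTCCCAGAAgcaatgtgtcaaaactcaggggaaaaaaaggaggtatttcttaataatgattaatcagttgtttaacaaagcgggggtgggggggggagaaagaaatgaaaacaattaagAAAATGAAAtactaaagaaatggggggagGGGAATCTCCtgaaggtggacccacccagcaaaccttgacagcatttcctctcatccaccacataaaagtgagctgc
Car4: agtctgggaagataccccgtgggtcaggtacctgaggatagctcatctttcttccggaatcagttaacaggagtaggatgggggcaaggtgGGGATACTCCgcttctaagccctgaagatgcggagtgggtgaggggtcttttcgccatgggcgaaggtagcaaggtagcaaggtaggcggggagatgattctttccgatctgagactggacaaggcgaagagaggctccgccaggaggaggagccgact
Cxcl1: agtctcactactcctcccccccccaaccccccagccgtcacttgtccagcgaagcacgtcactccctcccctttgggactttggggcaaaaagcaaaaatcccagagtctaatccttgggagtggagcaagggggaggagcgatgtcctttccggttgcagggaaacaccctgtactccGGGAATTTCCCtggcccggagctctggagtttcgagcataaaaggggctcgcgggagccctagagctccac

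Of the 17 genes of the receptor, JAK, STAT and SOCS list 3 were higher with IFN-γ + ACs and 5 with E. coli + ACs. These are 17.6% and 29.4%, beside 9.93% and 6.72% of all genes. Socs1, an inhibitor of JAK kinases that IFN-γ induces, had levels of 7376, 7869 and 7295 with IFN-γ + ACs against 3338, 2917 and 3109.5 with E. coli + ACs (1.27 ± 0.22, adjusted p = 0.00036). The SOCS genes linked to IL-5 and other STAT5 signals went the other way. Socs2 was at 2689, 2973 and 2325 with E. coli + ACs against 1228, 1184 and 1447 with IFN-γ + ACs (-1.05 ± 0.12, adjusted p = 3.6e-06), and Cish differed by -0.94 ± 0.13. Of the 7 interferon regulatory factors tested, Irf1 and Irf8 were far higher with IFN-γ + ACs. Irf1, a transcription factor of interferon responses, stood at 4639, 4445 and 4158 with IFN-γ + ACs against 720.0, 629.5 and 720.4 with E. coli + ACs, with 783 ± 44.2 with ACs alone (2.68 ± 0.12, adjusted p = 6.1e-12). Irf8, which directs myeloid cell fates, had levels of 485, 698 and 646 with IFN-γ + ACs against 80.4, 65.4 and 60.7 with E. coli + ACs (3.12 ± 0.25, adjusted p = 2.1e-08). Irf5 was also higher (0.65 ± 0.15), though its call was lost when libraries were rescaled to a common total of reads (0.51). Irf3 was higher with E. coli + ACs (-0.67 ± 0.21), a call lost without any one of the E. coli + ACs libraries or without IFN-γ + ACs replicate 3 (-0.38 to -0.70).

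Antigen presentation genes were higher with IFN-γ + ACs as a group. Of 14 genes of MHC class II presentation 10 were higher with IFN-γ + ACs and 0 with E. coli + ACs (median 1.97). H2-Ab1, the β chain of I-A, was at 2504, 2903 and 2409 with IFN-γ + ACs against 531, 418 and 562 with E. coli + ACs, and at 450.1 ± 18.1 with ACs alone (2.38 ± 0.13, adjusted p = 8e-11). H2-DMb1 and H2-DMa, the chains of the peptide editor, differed by 3.09 ± 0.28 and 2.65 ± 0.30. Ciita, the master regulator of the class II genes, stood at 23.7, 37.8 and 30.8 with IFN-γ + ACs against 0.84, 3.27 and 0 with E. coli + ACs, where the E. coli level was below that of 3 reads in 2 of 3 libraries. Of 19 genes of MHC class I and the immunoproteasome 17 were higher with IFN-γ + ACs and 0 with E. coli + ACs, with a lower median than the class II genes (0.90). Nlrc5, the regulator of the class I genes, had levels of 819, 544 and 671 with IFN-γ + ACs against 193, 197 and 183 with E. coli + ACs (1.805 ± 0.14, adjusted p = 1.7e-08). Psmb9, a subunit of the immunoproteasome, was at 889, 872 and 950.1 with IFN-γ + ACs against 337, 329 and 339.5 with E. coli + ACs (1.43 ± 0.12, adjusted p = 3.2e-08). Macrophages and B cells also express class II genes. The macrophage marker sum was higher with IFN-γ + ACs and the B cell marker sum with E. coli + ACs, and their part in these differences was not tested.

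The antiviral interferon-stimulated genes, which type I interferon and bacteria also induce, differed in few cases. Of 30 tested 5 were higher with IFN-γ + ACs (16.7%, beside 9.93% of all genes), 1 with E. coli + ACs and 24 did not pass the threshold (median 0.32, against ACs alone 0.33 with IFN-γ + ACs and 0.22 with E. coli + ACs). Ifit2 stood at 1554, 1899 and 2013 with IFN-γ + ACs against 435, 425 and 329.9 with E. coli + ACs (2.20 ± 0.16, adjusted p = 9.2e-09). Herc6 differed by 1.08 ± 0.14, whereas Ifit3b was higher with E. coli + ACs (-0.86 ± 0.20), a gene whose reads may be shared with its near copy Ifit3. Trim25 (0.63 ± 0.12) fell below 1.5-fold without IFN-γ + ACs replicate 3 (0.58), under a common upper quartile (0.58) and under a common total of reads (0.49). In the Ifi200 family and Aim2, sensors of DNA, 10 of 12 were higher with IFN-γ + ACs (median 0.95), led by Ifi203 at 586, 667 and 841 with IFN-γ + ACs against 297, 312 and 213 with E. coli + ACs (1.35 ± 0.22, adjusted p = 0.00016). Of 6 interferon-linked PARPs 3 were higher with IFN-γ + ACs, with Parp14 at 0.98 ± 0.11 and Parp10 at 0.90 ± 0.17, and Parp9 lost its call under a common total of reads (0.55). Parp11 passed the threshold without E. coli + ACs replicate 3, IFN-γ + ACs replicate 1 or IFN-γ + ACs replicate 3 (0.60 to 0.65), and Parp3 without IFN-γ + ACs replicate 2 (0.59). Of 6 Schlafen genes 1 differed, Slfn4, at 896, 1049.9 and 1079 with IFN-γ + ACs against 478, 414 and 401 with E. coli + ACs. The Ifitm family went the other way, with 3 of 4 higher with E. coli + ACs. One of them, Ifitm2, lost its call without E. coli + ACs replicate 1 (-0.52) or IFN-γ + ACs replicate 3 (-0.41). The same held with DESeq2 (-0.58) and with array weights (-0.51). Ifitm1, a membrane protein that blocks viral entry, had levels of 3619, 4435 and 3709 with E. coli + ACs against 2635, 2427 and 2077 with IFN-γ + ACs, with 217 ± 48.9 with ACs alone (-0.72 ± 0.14, adjusted p = 0.00099), so both stimuli were far above the ACs level. The Ifitm genes are similar in sequence, and their counts may hold reads of one another.

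Enzymes of arginine, tryptophan and itaconate metabolism were higher with IFN-γ + ACs in 7 of 11 cases and with E. coli + ACs in 1 (median 1.59). Nos2, the inducible nitric oxide synthase, was at 5408, 6298 and 4383 with IFN-γ + ACs against 671, 565 and 680.0 with E. coli + ACs, and at 76.6 ± 21.4 with ACs alone (3.06 ± 0.17, adjusted p = 2.1e-10). E. coli + ACs therefore gave a level between the ACs and IFN-γ levels. Arg1, which consumes the same substrate as Nos2, stood at 24549, 30994 and 28961 with IFN-γ + ACs against 5251, 3793 and 4014 with E. coli + ACs (2.70 ± 0.15, adjusted p = 1e-10), and the E. coli level lay below the 6716 ± 543 with ACs alone. Arg2, the mitochondrial arginase, was the exception at 48.5, 40.1 and 30.8 with E. coli + ACs against 5.28, 8.02 and 0 with IFN-γ + ACs, with an IFN-γ level near that of 3 reads. Ido1, which degrades tryptophan, had levels of 109, 131 and 154 with IFN-γ + ACs against 3.35, 10.6 and 3.52 with E. coli + ACs (4.42 ± 0.46, adjusted p = 8.2e-07). Macrophages express Arg1, Nos2 and Ido1 as well, and the part of macrophages in these levels was not tested.

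Of 9 genes of the PD-1 ligand and costimulation list 4 were higher with IFN-γ + ACs and 1 with E. coli + ACs. Cd274, which encodes PD-L1, was at 1394, 1740.0 and 1709 with IFN-γ + ACs against 414, 460.3 and 439 with E. coli + ACs, and at 181 ± 17.4 with ACs alone, so both stimuli exceeded the ACs level and IFN-γ + ACs exceeded E. coli + ACs (1.88 ± 0.13, adjusted p = 3.5e-09). Cd86, a ligand of CD28, stood at 334, 434 and 472 with IFN-γ + ACs against 90.4, 80.9 and 73.9 with E. coli + ACs (2.31 ± 0.19, adjusted p = 3.9e-08), and its E. coli level was below the 144 ± 11.1 with ACs alone. Icam1, an adhesion molecule, differed by 1.07 ± 0.17. Tnfrsf9, the costimulatory receptor 4-1BB, was higher with E. coli + ACs, at 44.4, 23.7 and 42.2 with E. coli + ACs against 17.1, 3.44 and 4.10 with IFN-γ + ACs (-2.29 ± 0.52, adjusted p = 0.0031).

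Complement genes were higher with IFN-γ + ACs in 10 of 11 tested (median 1.86), and here the levels against ACs alone had medians of 0.51 with IFN-γ + ACs and -0.57 with E. coli + ACs. C3, the central component, had levels of 949.7, 1012 and 687 with IFN-γ + ACs against 159.9, 118 and 155 with E. coli + ACs, with 214 ± 31.1 with ACs alone (2.60 ± 0.17, adjusted p = 2.2e-09). C1qb, a chain of C1q that resident macrophages make, was at 5764, 5829.6 and 3277 with IFN-γ + ACs against 989, 791 and 1242 with E. coli + ACs (2.27 ± 0.19, adjusted p = 5.5e-08), and is also on the macrophage marker list, whose sum moved the same way. Of 5 Fc receptor genes Fcgr4 was higher with IFN-γ + ACs, at 1004, 917 and 792 with IFN-γ + ACs against 224, 226 and 268 with E. coli + ACs (1.91 ± 0.15, adjusted p = 2.2e-08). Fcgr2b, the inhibitory receptor, was higher with E. coli + ACs (-0.60 ± 0.12), a call lost without E. coli + ACs replicate 1 (-0.55), IFN-γ + ACs replicate 2 (-0.57) or IFN-γ + ACs replicate 3 (-0.55), and Fcgr1, Fcgr3 and Fcer1g did not pass the threshold. Fcgr1 did so without E. coli + ACs replicate 1 (0.67, adjusted p = 0.0035).

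A broad difference was found in genes of glycolysis and of the response to low oxygen, of which 19 of 23 were higher with IFN-γ + ACs and 0 with E. coli + ACs (82.6%, beside 9.93% of all genes). Their median difference was 1.06, and against ACs alone the medians were 1.67 with IFN-γ + ACs and 0.66 with E. coli + ACs. Vegfa, the angiogenic growth factor, stood at 840.2, 846 and 1303 with IFN-γ + ACs against 94.6, 89.1 and 125 with E. coli + ACs, a 9.68-fold difference of the means (3.25 ± 0.24, adjusted p = 8.2e-09), and its E. coli level equalled the 103 ± 48.3 with ACs alone within the spread. Bnip3, which marks mitochondria for removal, had levels of 2836, 2692 and 3002 with IFN-γ + ACs against 360.0, 363 and 426 with E. coli + ACs (2.89 ± 0.12, adjusted p = 3e-12). Egln3, an oxygen-sensing hydroxylase that acts on HIF, was at 1583, 1678 and 2017 with IFN-γ + ACs against 289.6, 343 and 304 with E. coli + ACs (2.49 ± 0.20, adjusted p = 2.1e-08). Ndrg1 stood at 171, 228 and 189 with IFN-γ + ACs against 67.8, 32.7 and 29.9 with E. coli + ACs (2.24 ± 0.32, adjusted p = 4.1e-05). The other 15 genes past the threshold, glycolytic enzymes, glucose and lactate transporters and hypoxia-linked genes, differed by 0.59 to 2.04.

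Genes of the antioxidant factor NRF2 were above ACs alone with both stimuli (medians of 2.01 with IFN-γ + ACs and 1.34 with E. coli + ACs), and 4 of 10 were higher with IFN-γ + ACs and 2 with E. coli + ACs. Prdx1, a peroxiredoxin, had levels of 11854, 13306 and 13636 with IFN-γ + ACs against 2067, 1862 and 2250.1 with E. coli + ACs, and at 912 ± 152 with ACs alone (2.65 ± 0.13, adjusted p = 3.2e-11). Hmox1, heme oxygenase 1, was at 10598, 12637 and 9577 with IFN-γ + ACs against 3999.9, 2760 and 3234 with E. coli + ACs, and at 1822 ± 308 with ACs alone (1.72 ± 0.14, adjusted p = 3.9e-08). Srxn1, a sulfiredoxin, differed by 0.85 ± 0.13. Osgin1 was higher with E. coli + ACs (-0.89 ± 0.25), a call lost without E. coli + ACs replicate 2 or 3 or IFN-γ + ACs replicate 3 (-0.56 to -0.87). Of the 3 genes for metallothioneins and zinc, Slc30a1, a zinc exporter, stood at 377, 389.7 and 386 with IFN-γ + ACs against 141, 94.8 and 172 with E. coli + ACs (1.53 ± 0.19, adjusted p = 6.3e-06), and Mt1 differed by 0.98 ± 0.18. Mt2 passed the threshold when E. coli + ACs replicate 1 or IFN-γ + ACs replicate 1 or 3 was left out (0.63 to 0.71). Atf3, a stress-induced transcription factor, had levels of 1359, 1685 and 1716 with IFN-γ + ACs against 193, 131 and 139 with E. coli + ACs, with 62.4 ± 10.99 with ACs alone (3.37 ± 0.18, adjusted p = 8.6e-11). Among the 13 immediate early genes tested 3 were higher in each direction (23.1% each, beside 9.93% and 6.72% of all genes). Egr1 and Egr2 were higher with E. coli + ACs (-1.47 ± 0.26 and -2.46 ± 0.54), and Maff was higher with IFN-γ + ACs (1.31 ± 0.28). Egr1 was at 107, 172 and 104 with E. coli + ACs against 69.9, 29.8 and 41.04 with IFN-γ + ACs, both below its 541 ± 82.8 with ACs alone.

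In the other direction the largest difference was in Il19, an IL-10 family cytokine (GRCm38 chr1:130932656-130940115, minus strand). Il19 stood at 223, 124 and 224 with E. coli + ACs against 6.60, 1.15 and 2.05 with IFN-γ + ACs, and at 2.21 ± 2.32 (SD, n = 3) with ACs alone (-5.65 ± 0.54, adjusted p = 2.8e-07). With IFN-γ + E. coli + ACs its level was 29.8 ± 9.29. Csf3, which encodes the granulocyte growth factor G-CSF, had levels of 90.4, 63.8 and 113 with E. coli + ACs against 6.60, 5.73 and 2.05 with IFN-γ + ACs (-4.03 ± 0.42, adjusted p = 8.7e-07), and its IFN-γ level was at the 6.45 ± 2.89 of ACs alone. Cyp1b1, a cytochrome P450 enzyme, was at 143, 134 and 126 with E. coli + ACs against 3.96, 13.8 and 4.10 with IFN-γ + ACs (-4.23 ± 0.55, adjusted p = 1.2e-05). U90926 stood at 250.3, 141 and 269 with E. coli + ACs against 13.2, 13.8 and 34.9 with IFN-γ + ACs (-3.44 ± 0.37, adjusted p = 1.1e-06). Tpbpa, known from trophoblast, had levels of 69.5, 43.3 and 52.8 with E. coli + ACs against 3.96, 1.15 and 2.05 with IFN-γ + ACs, and its mean with IFN-γ + ACs was below the level of 3 reads, as was that of Il19, so these fitted differences depend on the pseudocount. Asb2, a subunit of a ubiquitin ligase, was at 198, 207 and 190 with E. coli + ACs against 15.8, 10.3 and 22.6 with IFN-γ + ACs, with 85.7 ± 5.71 with ACs alone between them (-3.59 ± 0.24, adjusted p = 2.4e-09). Mapt, which encodes tau, and Car4, a carbonic anhydrase, were like Asb2 lower with IFN-γ + ACs than with ACs alone. Car4 stood at 697, 681 and 661 with E. coli + ACs against 125, 65.3 and 45.1 with IFN-γ + ACs, and at 468 ± 40.7 with ACs alone (-3.22 ± 0.26, adjusted p = 2.8e-08). Mapt had levels of 91.2, 77.7 and 63.3 with E. coli + ACs against 7.91, 18.3 and 0 with IFN-γ + ACs, and at 205 ± 20.3 with ACs alone (-3.80 ± 0.65, adjusted p = 0.00026).

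**Figure D4:**
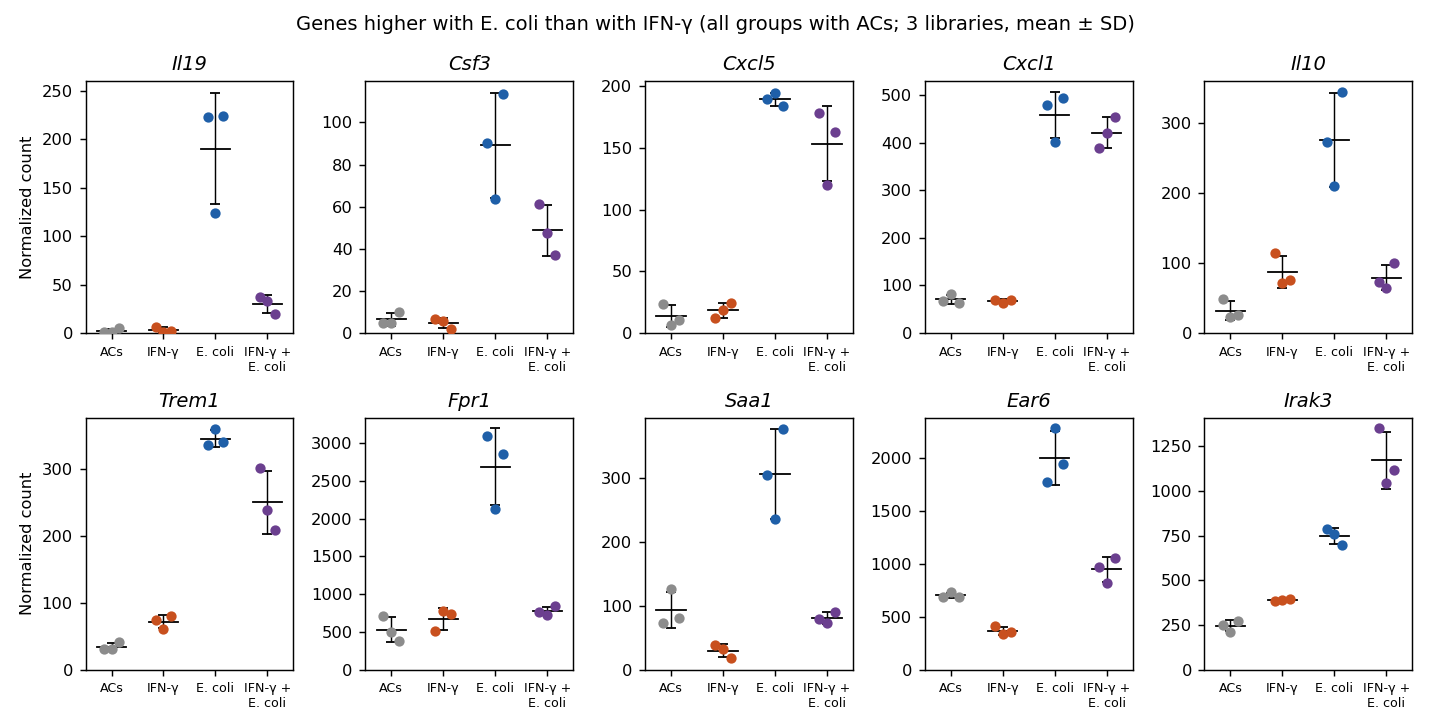
Normalized counts of 10 genes that were higher with E. coli than with IFN-γ, in each library (points) of the 4 groups, all with ACs, with mean and SD of 3 libraries. Il19, Csf3, Cxcl5, Cxcl1 and Fpr1 with IFN-γ lie near the level of ACs alone, and Saa1 and Ear6 lie below it.

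All 6 tested members of the list of neutrophil-attracting CXC chemokines were higher with E. coli + ACs, where 6.72% of all genes were (median -1.57, range -3.36 to -0.72). The list also holds Pf4, a CXC chemokine that is not a typical neutrophil attractant. Against ACs alone the medians of the list were 0.26 with IFN-γ + ACs and 2.03 with E. coli + ACs. Cxcl5 was at 190.0, 195 and 184 with E. coli + ACs against 11.9, 18.3 and 24.6 with IFN-γ + ACs (-3.36 ± 0.35, adjusted p = 7.5e-07). Cxcl1 stood at 479.7, 402 and 493 with E. coli + ACs against 69.9, 64.2 and 69.8 with IFN-γ + ACs (-2.73 ± 0.16, adjusted p = 2.1e-10), and its IFN-γ level was that of ACs alone, 71.2 ± 9.36. Cxcl3 had levels of 625, 585 and 595 with E. coli + ACs against 135, 163 and 252 with IFN-γ + ACs (-1.76 ± 0.21, adjusted p = 3.9e-06). Cxcl2 was at 1602, 1467 and 1393 with E. coli + ACs against 795, 914 and 946 with IFN-γ + ACs, a smaller gap (-0.75 ± 0.12, adjusted p = 0.00013). Pf4 and Ppbp, which platelets and macrophages carry, differed by -0.72 ± 0.18 and -1.38 ± 0.38. With E. coli + ACs 5 of the 6 were past the threshold above ACs alone, and Pf4 was not (0.12 ± 0.18). With IFN-γ + ACs Pf4 was below ACs alone (-0.60 ± 0.18). The call of Pf4 was lost without IFN-γ + ACs replicate 1 (-0.58), and that of Ppbp without E. coli + ACs replicate 2 (-1.06) or IFN-γ + ACs replicate 2 (-1.15).

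Of 9 cytokines of the TNF, IL-6, IL-10 and IL-12 families 6 were higher under E. coli and 1 under IFN-γ (median -1.29). Il10, an anti-inflammatory cytokine, stood at 273, 209 and 343 with E. coli + ACs against 113, 71.1 and 75.9 with IFN-γ + ACs, with 31.9 ± 13.97 with ACs alone (-1.66 ± 0.28, adjusted p = 0.00023). Tnf had levels of 46.9, 47.4 and 49.3 with E. coli + ACs against 21.1, 14.9 and 10.3 with IFN-γ + ACs, with 9.46 ± 1.99 with ACs alone (-1.63 ± 0.35, adjusted p = 0.0023), so its IFN-γ libraries lay near the ACs level and all its counts were low. Tnfsf10, which encodes the death ligand TRAIL, went the other way at 116, 163 and 129 with IFN-γ + ACs against 38.5, 49.05 and 31.7 with E. coli + ACs (1.76 ± 0.26, adjusted p = 5.8e-05). In the IL-1 family, receptors and decoys 6 of 14 were higher under E. coli and 2 under IFN-γ. Il1b was at 72.8, 62.1 and 68.6 with E. coli + ACs against 7.91, 10.3 and 22.6 with IFN-γ + ACs (-2.36 ± 0.41, adjusted p = 0.0003). Il18rap and Il1rap, accessory chains of the receptors for IL-18 and IL-1, differed by -1.54 ± 0.15 and -1.37 ± 0.26. Il18bp, the decoy that binds IL-18, stood at 1115, 1063 and 839 with IFN-γ + ACs against 177, 158 and 199.7 with E. coli + ACs, with 229 ± 19.9 with ACs alone (2.49 ± 0.14, adjusted p = 2.1e-10). So the gene for the IL-18 decoy was higher with IFN-γ + ACs and that for a receptor chain of IL-18 with E. coli + ACs.

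CC chemokines were divided between the stimuli, with 5 of 12 higher with IFN-γ + ACs and 3 with E. coli + ACs. The shares were 41.7% and 25%, beside 9.93% and 6.72% of all genes. Ccl8, Ccl17 and Ccl12, which attract monocytes and T cells, were on the IFN-γ side. Ccl17 had levels of 56.7, 61.9 and 53.4 with IFN-γ + ACs against 3.35, 8.18 and 5.28 with E. coli + ACs (3.21 ± 0.43, adjusted p = 1.9e-05). Ccl8 was at 60.7, 67.6 and 80.03 with IFN-γ + ACs against 10.1, 0.82 and 7.92 with E. coli + ACs (3.63 ± 0.52, adjusted p = 4e-05), and Ccl12 differed by 2.13 ± 0.31. Ccl4, which attracts monocytes and T cells, was on the E. coli side at 1103, 845 and 862 with E. coli + ACs against 194, 229 and 316 with IFN-γ + ACs (-1.94 ± 0.22, adjusted p = 1.7e-06). Of 13 chemoattractant receptors 3 were higher with IFN-γ + ACs and 4 with E. coli + ACs. Fpr1, which binds formylated peptides of bacteria, stood at 3094, 2123 and 2854 with E. coli + ACs against 509, 774 and 739 with IFN-γ + ACs (-2.002 ± 0.20, adjusted p = 4e-07), and its IFN-γ level was within the spread of the 532 ± 171 with ACs alone. Cxcr2, the receptor of the neutrophil-attracting chemokines, had levels of 364, 367 and 266 with E. coli + ACs against 48.8, 43.6 and 96.5 with IFN-γ + ACs (-2.46 ± 0.26, adjusted p = 1.1e-06). Ltb4r1, the receptor of leukotriene B4, was at 467, 482 and 486 with E. coli + ACs against 222, 205 and 179 with IFN-γ + ACs (-1.25 ± 0.17, adjusted p = 2.7e-05).

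Most signalling components of NF-κB did not pass the threshold. Of 16 subunits and inhibitors 4 were higher under E. coli, 0 under IFN-γ and 12 did not pass the threshold (median -0.05). The share higher under E. coli was 25%, beside 6.72% of all genes, and 9.93% of all genes were higher under IFN-γ. Nfkbiz, an atypical IκB protein that promotes a subset of the targets, stood at 218, 164 and 155 with E. coli + ACs against 50.1, 52.7 and 55.4 with IFN-γ + ACs (-1.73 ± 0.20, adjusted p = 2.5e-06). Nfkb2 and Bcl3, a subunit and a nuclear coactivator, differed by -1.06 ± 0.23 and -0.85 ± 0.18. The call of Tnip1 was lost without E. coli + ACs replicate 1 (-0.43) or IFN-γ + ACs replicate 3 (-0.44). It was also lost with a pseudocount of 5 (-0.58) and with array weights (-0.54). Of 18 Toll-like receptors and adaptors 2 were higher with IFN-γ + ACs (11.1%) and 3 with E. coli + ACs (16.7%), beside 9.93% and 6.72% of all genes, so few genes stand behind either count. Irak3, a kinase homologue that restrains signalling from these receptors, had levels of 787, 759 and 696 with E. coli + ACs against 386, 391 and 396 with IFN-γ + ACs, with 246 ± 30.96 with ACs alone (-0.93 ± 0.13, adjusted p = 3e-05). Lbp, which hands lipopolysaccharide to CD14, was lower with E. coli + ACs than with IFN-γ + ACs (1.27 ± 0.32). Tlr7 (0.90 ± 0.27) lost its call without E. coli + ACs replicate 2 or 3 or IFN-γ + ACs replicate 2 or 3 (0.71 to 0.93), and Irak4 (-0.65 ± 0.21) without E. coli + ACs replicate 1 or 3 or IFN-γ + ACs replicate 1 or 2 (-0.47 to -0.68). Of 10 genes for mRNA decay and MAPK phosphatases 3 were higher with E. coli + ACs, of which Zc3h12a, a ribonuclease that degrades cytokine transcripts, was at 262, 195 and 216 with E. coli + ACs against 119, 105 and 94.4 with IFN-γ + ACs (-1.07 ± 0.17, adjusted p = 9e-05). The other two, Dusp2 and Dusp5, lost their calls without E. coli + ACs replicate 1 (-1.10 and -0.65).

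Acute phase and antimicrobial genes were higher with E. coli + ACs in 6 of 11 and with IFN-γ + ACs in 3. Saa1, a serum amyloid A, stood at 306, 236 and 377 with E. coli + ACs against 38.2, 32.1 and 18.5 with IFN-γ + ACs, with 94.1 ± 28.5 with ACs alone between them (-3.36 ± 0.27, adjusted p = 2.1e-08). Its neighbour Saa2 had levels of 42.7, 25.3 and 41.3 with E. coli + ACs against 1.32, 3.44 and 0 with IFN-γ + ACs, and reads of these near copies may be shared. Hp, haptoglobin, was at 1038, 868 and 1039.7 with E. coli + ACs against 239, 209 and 160.1 with IFN-γ + ACs, with 687 ± 62.3 with ACs alone (-2.29 ± 0.18, adjusted p = 1.6e-08), and S100a8 stood at 383, 254 and 354 with E. coli + ACs against 115, 124 and 146 with IFN-γ + ACs (-1.35 ± 0.22, adjusted p = 0.00013). Lyz2, lysozyme, was on the IFN-γ side at 8836, 10593 and 9401 with IFN-γ + ACs against 3658, 2747 and 3695 with E. coli + ACs, as were the macrophage markers. Lectins and scavenger receptors were mixed, with 5 of 16 higher with IFN-γ + ACs and 4 with E. coli + ACs. Their shares were 31.2% and 25%, beside 9.93% and 6.72% of all genes. Trem1, a receptor that amplifies responses to bacteria, had levels of 337, 361 and 340.4 with E. coli + ACs against 73.9, 60.8 and 80.03 with IFN-γ + ACs, with 34.5 ± 5.46 with ACs alone (-2.27 ± 0.19, adjusted p = 3.6e-08). Marco, a scavenger receptor for bacteria and debris, was at 2824, 3676 and 2965 with IFN-γ + ACs against 625, 405 and 509 with E. coli + ACs, with 707 ± 144 with ACs alone (2.63 ± 0.16, adjusted p = 4.3e-10). Clec4n, which encodes dectin-2, stood at 589.6, 616 and 681 with IFN-γ + ACs against 129, 118 and 99.4 with E. coli + ACs (2.44 ± 0.17, adjusted p = 4.1e-09), and both stimuli were above its 50.8 ± 10.9 with ACs alone.

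Genes tied to type 2 responses were higher with IFN-γ + ACs than with E. coli + ACs in 8 of 13 tested and lower in 0 (median 1.27). Clec10a, a lectin, had levels of 73.9, 73.4 and 73.9 with IFN-γ + ACs against 0.84, 3.27 and 10.6 with E. coli + ACs, and its 76.2 ± 19.5 with ACs alone was at the IFN-γ level (4.05 ± 0.63, adjusted p = 0.0001). Klf4, a transcription factor, was at 157, 203 and 135 with IFN-γ + ACs against 50.2, 36.8 and 45.7 with E. coli + ACs, with 128 ± 6.13 with ACs alone (1.87 ± 0.20, adjusted p = 1.3e-06). Ccl17 and Arg1, given above, belong to the same list. For Clec10a the gap was therefore a lower level with E. coli, whereas Arg1 and Ccl17 with IFN-γ were above ACs alone. Several of these genes are expressed by macrophages, whose markers moved the same way.

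Eosinophil markers were on the E. coli side. Ear6, an eosinophil-associated ribonuclease, stood at 1776, 2284 and 1945 with E. coli + ACs against 413, 336 and 357 with IFN-γ + ACs, with 703 ± 26.98 with ACs alone between them (-2.44 ± 0.13, adjusted p = 8e-11). It is 1 of a family of near copies whose reads may be shared. The transcription factors of the lineage differed in the same direction, with Cebpe at -1.17 ± 0.18, Gata2 at -1.004 ± 0.21 and Gata1 at -0.81 ± 0.14. Gata1 had levels of 1136, 1158 and 1363 with E. coli + ACs against 908, 614 and 591 with IFN-γ + ACs, with 833 ± 24.9 with ACs alone. Of 11 enzymes of leukotriene and prostaglandin synthesis 3 were higher under E. coli and 2 under IFN-γ. Alox5, 5-lipoxygenase, was at 2866, 3143 and 2859 with E. coli + ACs against 1560.4, 1558 and 1361 with IFN-γ + ACs (-0.99 ± 0.12, adjusted p = 3.3e-06), and Alox15 at 8898, 8967 and 8926 with E. coli + ACs against 5772, 5145 and 5450.4 with IFN-γ + ACs (-0.71 ± 0.10, adjusted p = 3e-05). Pla2g4a, the phospholipase that releases arachidonic acid, was on the IFN-γ side at 1771, 1965 and 2249 with IFN-γ + ACs against 1074, 1149 and 1109 with E. coli + ACs (0.84 ± 0.12, adjusted p = 4.3e-05). Ptgs2, cyclooxygenase 2, was on the same side (0.93 ± 0.27), a call lost without E. coli + ACs replicate 3 (0.89) or IFN-γ + ACs replicate 3 (0.64). Metalloproteinases and TIMPs were evenly divided, 3 of 11 each way. Mmp25 stood at 2593, 2719.9 and 2307 with E. coli + ACs against 1061, 1119 and 1217 with IFN-γ + ACs (-1.16 ± 0.11, adjusted p = 1.9e-07), whereas Mmp27 and Mmp19 were higher with IFN-γ + ACs (1.44 ± 0.16 and 1.52 ± 0.22). Mmp13 was higher with E. coli + ACs (-0.92 ± 0.32), and lost its call when any one of the 6 libraries was left out (-0.80 to -1.06).

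Survival and death genes did not pass the threshold in 14 of 18 cases, and 2 passed it in each direction (11.1% each, near the 9.93% and 6.72% of all genes). Bcl2, which blocks apoptosis, had levels of 126, 139.8 and 151 with E. coli + ACs against 21.1, 60.8 and 22.6 with IFN-γ + ACs, both below its 222 ± 40.1 with ACs alone (-2.14 ± 0.30, adjusted p = 3.6e-05). Bcl2a1a, another protective member of the family with near copies in the genome, was at 1627, 1656 and 1787 with E. coli + ACs against 669, 585 and 587 with IFN-γ + ACs (-1.46 ± 0.12, adjusted p = 2.4e-08). Bcl2l11, which encodes the death-promoting protein BIM, was higher with IFN-γ + ACs (0.78 ± 0.15), as was Mlkl, the effector of necroptosis (1.000 ± 0.16). Of 15 genes of cholesterol synthesis and uptake 1 passed the threshold, higher with E. coli + ACs, which is 6.67%, near the 6.72% of all genes. It was Fdft1, squalene synthase (-1.12 ± 0.37, adjusted p = 0.034). That call was lost when any one of the 6 libraries was left out except IFN-γ + ACs replicate 2, at differences of -0.92 to -1.25.

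**Figure D5:**
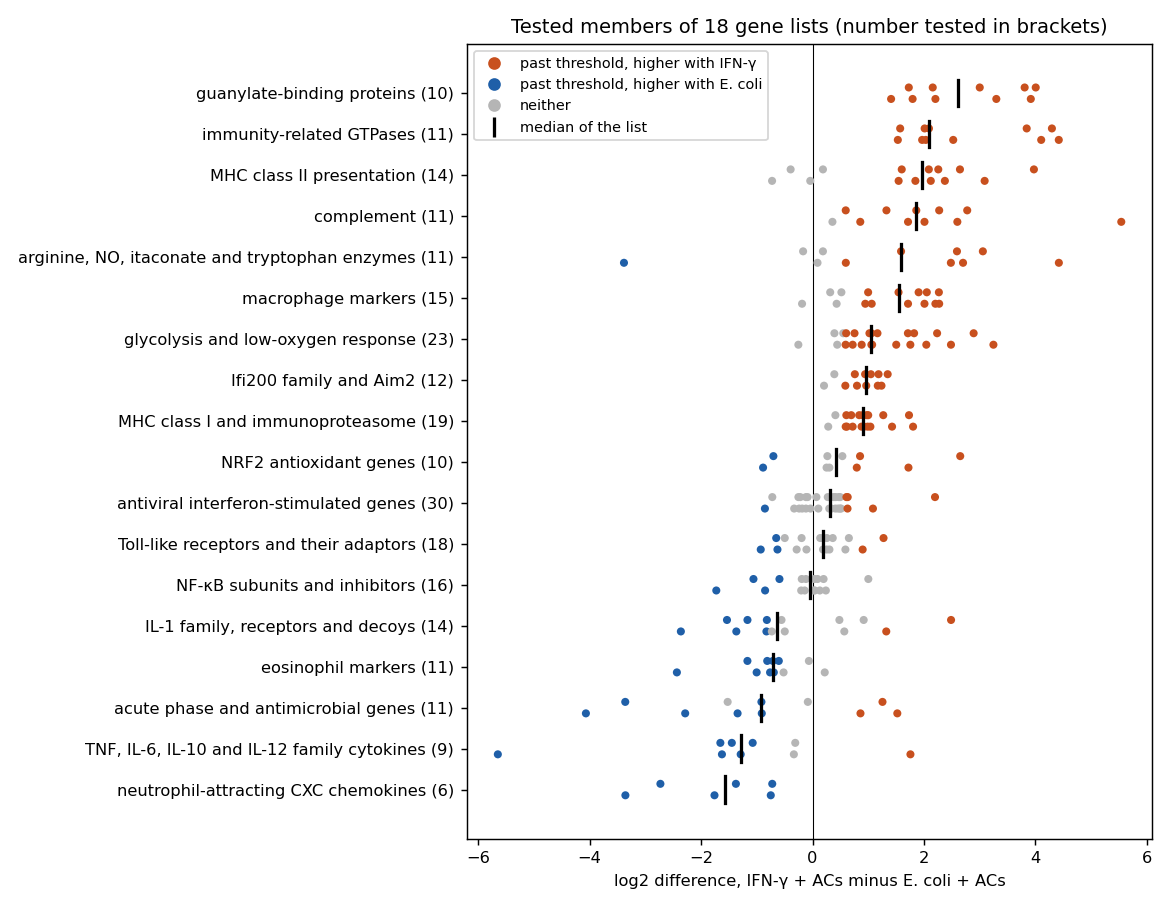
Log2 difference, IFN-γ + ACs minus E. coli + ACs, of each tested member of 18 gene lists (points) with the median of the list (bar); orange and blue mark members past the threshold and brackets give the number tested. The medians run from 2.60 for the guanylate-binding proteins to -1.57 for the neutrophil-attracting CXC chemokines, beside -0.004 for all genes.

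The genes past the threshold were lastly placed against the other groups of the experiment, as a description, since the calls rest on the same IFN-γ and E. coli libraries. For the 1004 genes higher with IFN-γ + ACs, the median difference against ACs alone was 0.93 with IFN-γ and -0.21 with E. coli. The level with ACs alone was nearer to that of E. coli for 732 of them (72.9%, beside 61.3% of all genes). For the 679 genes higher with E. coli + ACs, the medians against ACs alone were -0.75 with IFN-γ and 0.24 with E. coli, and ACs alone was nearer to E. coli for 478 (70.4%). In both directions, then, the IFN-γ libraries lay farther from ACs alone than the E. coli libraries did at the median. When both stimuli were given, the level lay between those of the single stimuli for 596 of the 1004 genes and 449 of the 679. Genes past the threshold were chosen for a wide gap between the single stimuli, so a level between them is the more likely by construction and nothing is read from these counts. It exceeded both for 249 of the 1004 genes (24.8%) and 86 of the 679 (12.7%), beside 31.7% of all genes. It was nearer to that of IFN-γ for 571 of the 1004 (56.9%) and 376 of the 679 (55.4%), beside 54% of all genes.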

How the data were processed

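RNA of 18 libraries was sequenced, of which the 3 of IFN-γ + ACs and the 3 of E. coli + ACs were compared, and the 3 of ACs alone and 3 of IFN-γ + E. coli + ACs from the same experiment entered the fit. The authors deposited 1 table of 54446 genes whose values are a normalized signal, reads per gene divided by a DESeq2 size factor for each library. The submitters' processing notes name GRCm38, FastQC 0.11.5, Trim Galore with cutadapt 1.10, TopHat2 2.1.0 with Bowtie2 2.2.6, HTSeq 0.6.1 and DESeq2 1.26.0, while the methods also name STAR, and which of them made these columns is not given in the sources used here. Every column of per-sample values was mapped to a sample by its name. Gene identifiers were matched to symbols and GRCm38 positions of GENCODE M21 for 54409 genes.

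Whole multiples of the value of 1 read per library gave back whole reads, within 0.1 read, for 100% of the values above 0 in each of the 6 libraries compared and for at least 99.98% in each of the 12 fitted, and these set the depths. The test was planned for the unit found: log2(value + 1) was fitted with limma 3.58.1 (R 4.3.3, moderated test with trend) over the 12 libraries with 1 mean per group, for genes whose mean over the 6 libraries reached 10, and p-values were adjusted by Benjamini-Hochberg. The procedure was tested on simulated data. Alternatives were a pseudocount of 5, no filter, a mean of at least 50, the 6 libraries only, the replicate number as a block, a common upper quartile, array weights, no fold threshold, tests of the recovered reads by edgeR 4.0.16 and by DESeq2 1.42.0, and each of the 6 libraries left out in turn. A common total of reads was added after seeing the data.

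Genes were named by a rule: the 10 largest differences in each direction among genes past the threshold whose libraries did not overlap and whose higher group had a mean of at least 50, up to 4 members past the threshold of each of 43 gene lists, any member of lists of 7 or fewer, and the receptors and adaptors of both stimuli. A few genes that the rule names are not reported here. The comparison and the lists were chosen with earlier results of these data known. Promoters came from RefSeq on GRCm38.p6 and were matched by symbol. Tables and plots were made with Python 3.11.15, pandas 2.3.3, numpy 2.4.6 and matplotlib 3.10.9.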

Additional observations from a re-analysis of the deposited data

How the results depend on the processing

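Rescaling libraries to a common total of reads gave 1041 genes higher with E. coli + ACs in place of 679, the 1 count that moved by more than 1.5 times, and 754 higher with IFN-γ + ACs in place of 1004. Over the other alternatives, apart from leaving libraries out, the counts were 815 to 1217 and 539 to 867, and leaving out 1 library at a time gave 855 to 991 and 530 to 716. No gene was called in the opposite direction under these other alternatives. With edgeR on the recovered reads 1007 and 720 genes were called, and with DESeq2 1027 and 704. Of the 172 named genes, all kept their call with edgeR, 170 with DESeq2 and 158 to 164 when 1 library was left out. Deviations of same-numbered IFN-γ + ACs and E. coli + ACs libraries correlated at -0.0635, -0.0397 and -0.0491. Those of same-numbered IFN-γ + ACs and IFN-γ + E. coli + ACs libraries correlated at 0.0578, 0.0726 and 0.0924. Values this small, from 3 libraries per group, cannot settle whether the replicate numbers pair the libraries. With the replicate block 998 and 693 genes were called. Mmp13 lost its call under the block. With no filter on low values the calls of Irak4, Mmp13, Fdft1, Ly6g and Cd79a were lost. With the 6 libraries only that of Irak4 was lost. Array weights took away the calls of Irf3, Ifitm2, Fcgr2b and Tnip1, while Parp11 and Mt2 passed the threshold. Tlr7 lost its call under a common total of reads, and Mt2 passed the threshold with DESeq2. The IFN-γ libraries were the shallower, so a low level in them is the less certain, and levels under 3 reads cannot be ordered.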
